A study of Mus musculus with 4 samples.

Results

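Elastic fibre and microfibril genes encode the proteins that let connective tissue stretch and recoil. The set examined here comprised 10 genes, taken by symbol: the elastin gene Eln, the fibrillin genes Fbn1 and Fbn2, the fibulin genes Fbln1, Fbln2 and Fbln5, the fibulin-family genes Efemp1 and Efemp2, and the microfibril-associated protein genes Mfap4 and Mfap5. They were picked by function and not by a threshold on the signals, but with earlier results of these data known. Of the 10, 8 had a named probe set, 15 probe sets in all, among 18193 genes with a named probe set in the series. Fbn1 and Efemp2 had none in the annotation used and were not analysed here. The main probe set of a gene is the one with the highest mean over the 4 arrays and stands for the gene. A gene was tested when that mean exceeded 35.1, the median of all signals, and 7 of the 8 genes passed, the exception being Mfap4.

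The cells were 3T3-MEFs, fibroblasts from mouse embryos grown on as a continuous line, harvested undifferentiated at confluence with no treatment named in the labels. They came from SMRTmRID mutant mice or from wild-type mice. Nuclear receptors use the corepressor SMRT to hold target genes silent, and the mutation lies in its receptor interaction domains. Total RNA was labelled with biotin and read on 4 Affymetrix arrays, 2 of SMRTmRID cells and 2 of wild-type cells. The labels call the 2 arrays of a genotype technical replicates and give no number of lines, embryos or cultures, so all errors and p-values below measure the spread between technical replicates alone. Differences between genotypes cannot be told apart from differences between the lines that carry them. SMRT's own transcript was not analysed here.

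In an elastic fibre, cross-linked elastin forms a core inside a sheath of microfibrils, which are strings of fibrillin decorated by small glycoproteins. Fibulins are secreted proteins built largely of calcium-binding EGF-like repeats. The short fibulins, among them the products of Fbln5, Efemp1 and Efemp2, guide elastin onto microfibrils or bind its cross-linking enzymes, while the longer products of Fbln1 and Fbln2 sit in elastic fibres and basement membranes. Microfibrils also hold latent complexes of TGF-beta, a growth factor that drives fibroblasts to make matrix.

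The promoters of 3 fibulin genes are shown because these family members differed at least 2-fold between the genotypes and in opposite directions, Efemp1 and Fbln5 being lower and Fbln1 higher in SMRTmRID cells. Each run is the 250 bases before the start of the gene, from RefSeq on GRCm38.p6, on the gene's own strand. For Fbln1 and Fbln5, which have 2 listed starts, the most upstream is printed. Efemp1 covers chr11:28852955-28853204 on the plus strand, Fbln5 chr12:101819120-101819369 on the minus strand and Fbln1 chr15:85205699-85205948 on the plus strand. Capitals mark matches, on either strand, to the motifs searched.
Efemp1: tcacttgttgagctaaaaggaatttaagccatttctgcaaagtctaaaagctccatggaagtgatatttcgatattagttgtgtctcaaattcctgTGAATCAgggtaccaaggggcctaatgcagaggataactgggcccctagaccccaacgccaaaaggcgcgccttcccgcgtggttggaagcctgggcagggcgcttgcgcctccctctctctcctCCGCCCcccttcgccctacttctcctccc
Fbln5: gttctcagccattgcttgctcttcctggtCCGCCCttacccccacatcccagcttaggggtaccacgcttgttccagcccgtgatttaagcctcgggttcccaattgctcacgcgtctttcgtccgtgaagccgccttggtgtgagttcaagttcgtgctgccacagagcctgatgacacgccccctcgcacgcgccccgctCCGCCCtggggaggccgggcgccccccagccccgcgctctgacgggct
Fbln1: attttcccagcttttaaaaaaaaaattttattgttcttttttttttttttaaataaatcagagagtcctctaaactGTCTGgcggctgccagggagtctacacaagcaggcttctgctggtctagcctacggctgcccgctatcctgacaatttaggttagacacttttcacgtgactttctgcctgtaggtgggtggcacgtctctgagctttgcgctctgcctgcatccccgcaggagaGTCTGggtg

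The motifs were the nuclear receptor half-site AGGTCA, the AP-1 site TGANTCA, the GC box GGGCGG, the TATA box TATAAA and the CAGAC box, a short element bound by Smad proteins. Efemp1 had an AP-1 match 154 to 148 bases before the start and a GC box 29 to 24 bases before it. Fbln5 had 2 GC boxes, and Fbln1 had 2 CAGAC boxes. The second listed start of Fbln5 had 2 CAGAC boxes. That of Fbln1, whose window overlaps the first, had the same 2 CAGAC boxes and a GC box. Fbln2, another called member with an entry, had 1 GC box. In none of these 6 windows were the letters of the receptor half-site or of the TATA box found. Among 32851 windows of the same length, 14.0% held the half-site, 6.75% the AP-1 site, 32.7% the GC box, 12.4% the TATA box and 42.2% the CAGAC box. A match describes letters only. Eln, Mfap4 and Mfap5 had no entry, and Fbn2 was not searched.

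The arrays were compared as deposited. The trimmed mean signal was 200.0 on all 4, a level set by the scaling. Median signals were 34.3 and 30.3 on the wild-type arrays and 37.7 and 38.2 on the SMRTmRID arrays. Pearson's r across tested genes was 0.991 within each genotype and 0.860 to 0.861 between genotypes. The beta-actin control had a 3′/5′ ratio of 1.19 to 1.20. Differences are the SMRTmRID value minus that of wild-type as log2(signal + 16), in which changes from a low level come out too small, and genes with a limma p under 0.05 after Benjamini-Hochberg adjustment over all 11057 tested genes count as called. In this comparison 65.2% of all tested genes were called, 30.3% higher and 35% lower in SMRTmRID.

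Of the 7 tested members, 3 were higher in SMRTmRID cells on their main probe sets (Mfap5, Fbln1 and Fbln2), 3 were lower (Efemp1, Fbn2 and Fbln5) and Eln did not pass. The 6 calls among 7 stand against the 65.2% called over all genes, a share that makes calls common for any list. Larger changes were scarcer: 5 of the 7 members were called and differed at least 2-fold on the log2(signal + 16) scale, against 16.5% of all tested genes. Upward there were 2 of 7, against 9.69% of all tested genes, and downward 3 of 7, against 6.79%. In all 7 tested members the SMRTmRID arrays were both above or both below the wild-type arrays, as in 81.5% of all tested genes. Efemp1 passed the filter through its wild-type arrays alone and so had to differ, and these counts describe the tested genes only. The median log2 difference of the tested members was 0.12 and the median absolute difference 1.67, against -0.05 and 0.43 over all tested genes. In RNA from whole cultures, fewer cells of a type and less RNA per cell cannot be told apart.

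**Figure D1:**
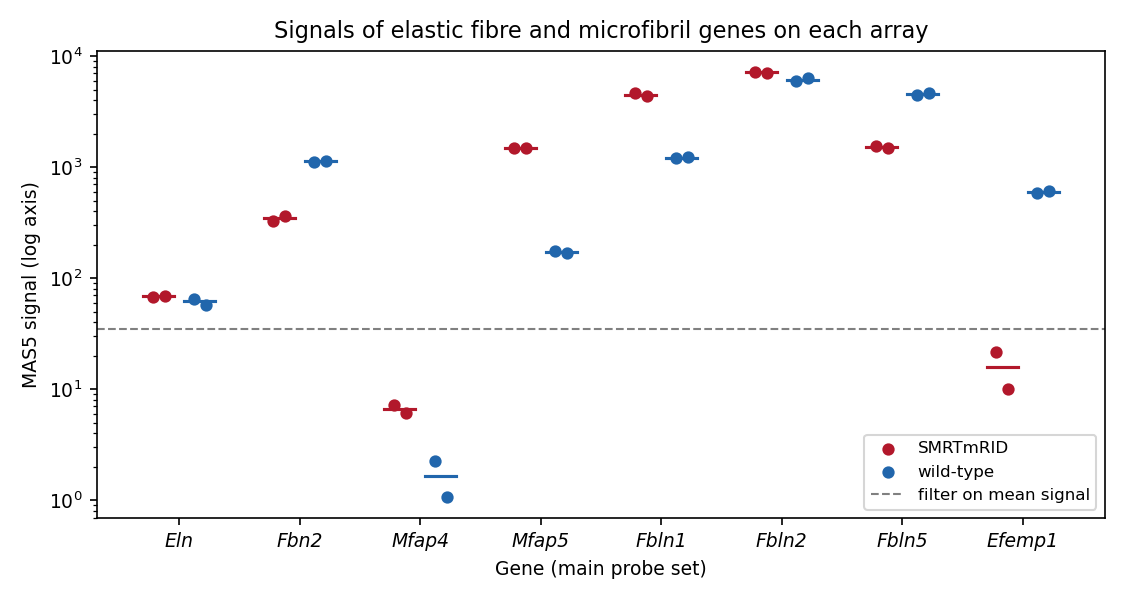
MAS5 signal (log axis) of the main probe set of 8 genes on each array, with SMRTmRID arrays in red and wild-type arrays in blue. Points are arrays, short bars are means of 2 arrays and the dashed line is the filter at 35.1. Mfap5 and Fbln1 are higher in SMRTmRID, Fbn2, Fbln5 and Efemp1 are lower, and Efemp1 lies under the dashed line on both SMRTmRID arrays.

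**Figure D2:**
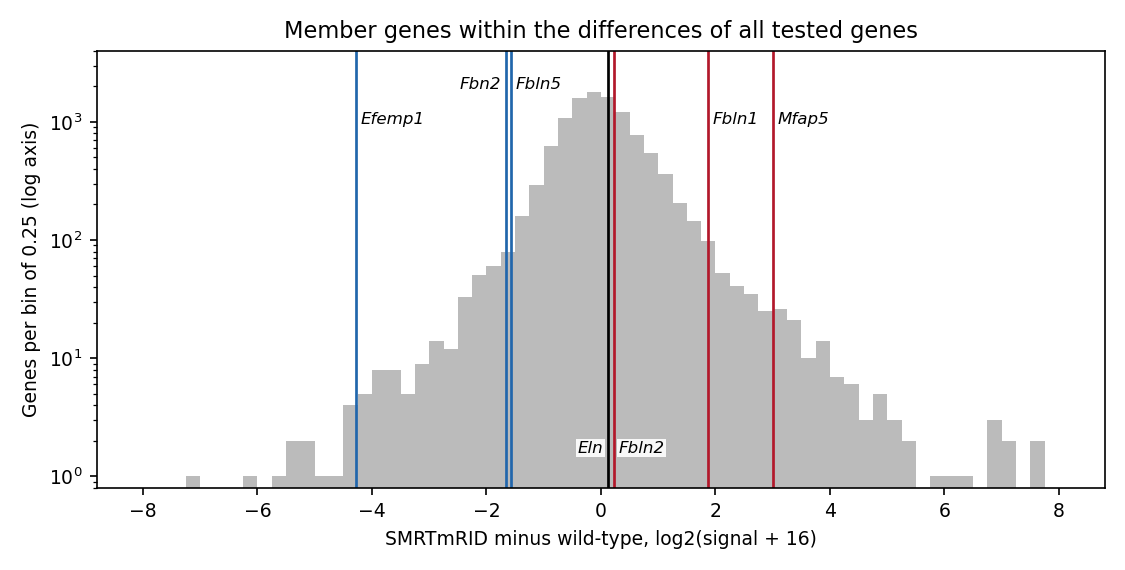
Number of tested genes (log axis) by log2 difference in bins of 0.25, with vertical lines at the 7 tested members, red where called higher, blue where called lower and black where not called. Efemp1 at -4.28 and Mfap5 at 3.00 lie in the tails, and Eln at 0.12 and Fbln2 at 0.22 near the centre.

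Elastin itself showed no detectable difference between the genotypes. The main probe set of Eln (1420855_at) had signals of 67.5 and 69.4 in SMRTmRID cells, against 65.6 and 57.9 in wild-type cells. Both SMRTmRID arrays were above both wild-type arrays. The wild-type arrays lay 0.14 apart (log2), against 0.03 and 0.21 between same-numbered arrays of the genotypes. The log2 difference was 0.12 ± 0.20 (SE), with a 95% interval of -0.32 to 0.56 and an adjusted p of 0.612 (limma). Differences anywhere within that interval remain compatible with the signals of these arrays. The other Eln probe set (1420854_at) had signals of 9.43 and 4.66 in SMRTmRID cells, against 7.19 and 6.69 in wild-type cells. It was below the filter, and its genotypes overlapped.

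Fbn2 encodes fibrillin-2, the fibrillin made mostly during development, and was lower in SMRTmRID cells on both of its probe sets. The main one (1454830_at) had signals of 330.0 and 363 in SMRTmRID cells, against 1123 and 1147 in wild-type cells. The means were 347 ± 23.5 in SMRTmRID and 1135 ± 16.9 in wild-type cells (SD, n = 2 arrays each), 3.27-fold lower in the mutant. The log2 difference was -1.67 ± 0.07 (SE, adjusted p = 5.31e-08, limma). On the other probe set (1422831_at) the signals were 221 and 257 in SMRTmRID cells, against 822 and 805 in wild-type cells. Its log2 difference was -1.71 ± 0.09 (SE), within the error of the first.

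The microfibril-associated protein genes were represented by Mfap5 and Mfap4. Mfap5 encodes MAGP-2, a small glycoprotein that binds fibrillins, and had the greatest rise among the members. Its main probe set (1418454_at) gave 1498 and 1497 in SMRTmRID cells, against 176 and 169 in wild-type cells, an 8.67-fold higher mean. The arrays of each genotype were close, and the log2 difference was 3.00 ± 0.07 (SE, adjusted p = 1.28e-09, limma). The second Mfap5 probe set (1449082_at) gave 386 and 360.0 in SMRTmRID cells, against 87.3 and 59.2 in wild-type cells. It ran in the same direction at a log2 difference of 2.14 ± 0.16 (SE), smaller than on the main probe set. Mfap4, which encodes a fibrinogen-related protein of elastic fibres, had 7.26 and 6.12 in SMRTmRID cells, against 2.26 and 1.08 in wild-type cells. All 4 of these signals were far below the filter, and Mfap4 was not tested. Without a filter its difference of 0.36 did not pass (adjusted p = 0.199, limma).

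Of the longer fibulins, Fbln1 was higher on all of its probe sets, whereas those of Fbln2 disagreed. Fbln1 encodes fibulin-1, a partner of elastin, fibronectin and basement membrane proteins, and has 3 probe sets. The main one (1451119_a_at) had signals of 4634 and 4371 in SMRTmRID cells, against 1201 and 1229 in wild-type cells. The mean was 3.71-fold higher in the mutant, and the log2 difference was 1.88 ± 0.05 (SE, adjusted p = 3.43e-09, limma). The second (1422540_at) had 1654 and 1578 in SMRTmRID cells, against 317 and 281 in wild-type cells, a log2 difference of 2.38 ± 0.07 (SE). The third (1439688_at) was dim, with 94.7 and 86.4 in SMRTmRID cells, against 48.3 and 61.0 in wild-type cells. All 3 probe sets ran upward, with non-overlapping genotypes, but their 95% intervals did not overlap each other. The dim one passed at an adjusted p of 0.0231 (limma, over 22481 probe sets, of which 59.5% were called) and not under 5 of 11 alternatives, with adjusted p-values of 0.0555 to 0.108. Those were no filter, quantile normalization, and the fits without wild-type replicate 1, SMRTmRID replicate 1 or SMRTmRID replicate 2.

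Fbln2 encodes fibulin-2, which binds tropoelastin, fibrillin and versican. Its main probe set (1423407_a_at) had signals of 7195 and 7064 in SMRTmRID cells, against 5934 and 6302 in wild-type cells. The genotypes did not overlap, and the mean was 1.17-fold higher in SMRTmRID (log2 difference 0.22 ± 0.05 SE, adjusted p = 0.00254, limma). The second probe set (1438375_at) ran the other way, with 15.8 and 16.2 in SMRTmRID cells, against 39.0 and 47.3 in wild-type cells. Its mean over all arrays, 29.6, was below the filter, and it was not tested. With the mean of both probe sets the gene was lower in SMRTmRID, at -0.33 (adjusted p = 0.00418, limma), and without a variance trend the rise did not pass (adjusted p = 0.0553). The direction of Fbln2 therefore depended on the probe set used.

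The short fibulins that were measured were lower. Fbln5 encodes fibulin-5, which binds elastin, the cross-linking enzyme LOXL1 and integrins. Its main probe set (1416164_at) had 1546 and 1500.4 in SMRTmRID cells, against 4500 and 4608 in wild-type cells. Both mutant arrays were well below both wild-type arrays, with a mean 2.99-fold lower. The log2 difference was -1.57 ± 0.05 (SE, adjusted p = 6.71e-09, limma). The other probe set (1446377_at) had 22.3 and 2.29 in SMRTmRID cells, against 12.3 and 15.7 in wild-type cells. It was below the filter and its genotypes overlapped, and with the mean of both probe sets the difference of the gene was -0.87 (adjusted p = 0.00260, limma).

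Efemp1 encodes fibulin-3, a matrix glycoprotein that binds the inhibitor TIMP-3, and had the greatest fall among the members. Its single probe set (1427183_at) had signals of 21.7 and 10.1 in SMRTmRID cells, against 583 and 604 in wild-type cells. Both mutant signals lay below the filter of 35.1, at a level where MAS5 signals carry little information on amount. The log2 difference was -4.28 ± 0.19 (SE, adjusted p = 7.47e-08, limma). The size depended on how the low level was handled: it was -3.04 with a pseudocount of 64 and -5.22 with a pseudocount of 1, both past the threshold.

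**Figure D3:**
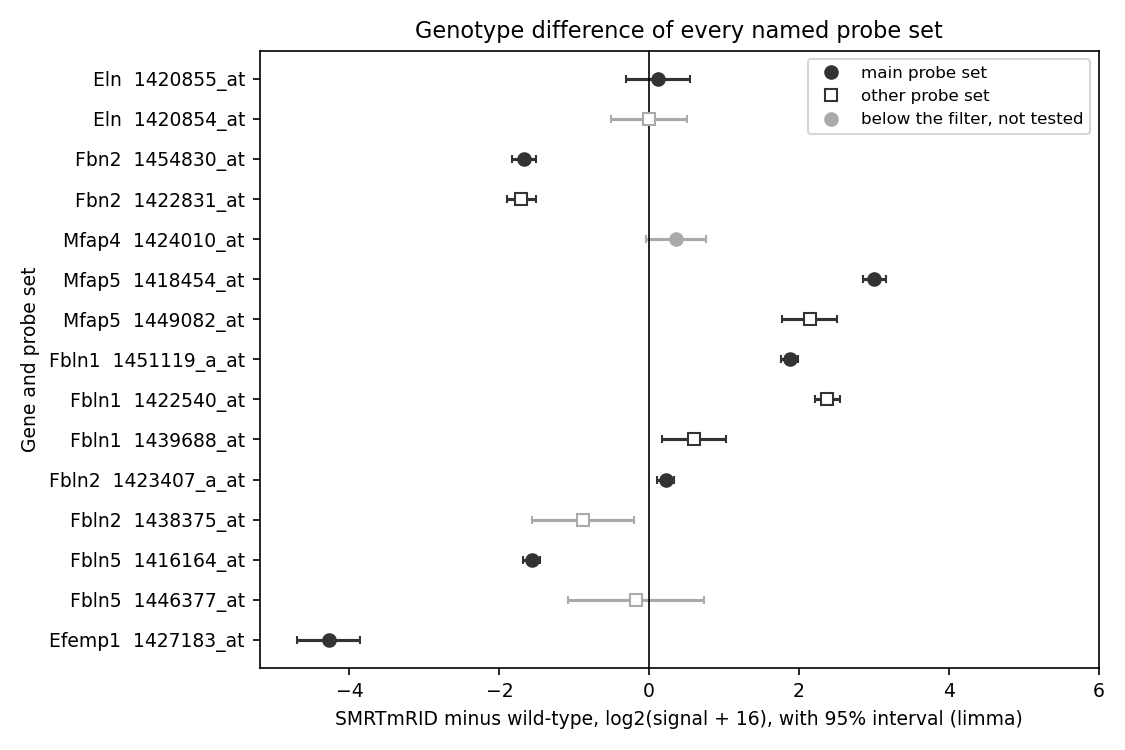
Log2 difference between SMRTmRID and wild-type cells for the 15 probe sets of the 8 genes, with 95% intervals (limma). Filled circles are main probe sets, open squares other probe sets and grey symbols probe sets below the filter, which were not tested and whose intervals come from a fit without the filter. Both Fbn2 probe sets, both of Mfap5 and all 3 of Fbln1 lie on the same side of 0, while those of Fbln2 lie on opposite sides.

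Replicate spread was small beside these differences for most members. Between the arrays of a genotype the tested members differed by 0.00 to 0.53 (log2), the highest being Efemp1 in SMRTmRID cells at its low signal. Taking the arrays by replicate number, Mfap5 differed by 2.98 and 3.03, Fbln1 by 1.93 and 1.82, Fbn2 by -1.72 and -1.62, Fbln5 by -1.53 and -1.61, and Efemp1 by -3.99 and -4.57. Eln differed by 0.03 and 0.21 in the same pairs.

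Genes that work with the members were counted in 7 lists by role, 59 genes in all. A named probe set was found for 55, and 40 were tested: 17 were higher and 16 lower in SMRTmRID cells, and 7 did not pass. The share called was 82.5%, against 65.2% of all tested genes, with a median log2 difference of 0.06. Most of these genes were bright, and calls were more common among bright genes. With the filter at the 75th percentile, 14 of 35 were higher and 15 lower, against 2261 and 2930 of 6834 genes. There too the share called was higher in the lists than over all genes, and the part of brightness was not tested.

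Among other microfibril, fibulin and emilin genes, 3 of 4 tested were higher and 1 lower. Mfap2 encodes MAGP-1, the closest relative of the Mfap5 product, and had 442 and 390.1 in SMRTmRID cells, against 12.1 and 7.59 in wild-type cells. Its log2 difference was 4.07 ± 0.18 (SE, adjusted p = 8.00e-08, limma), and the wild-type level was near the bottom of the scale, so that the gene passed the filter through its SMRTmRID arrays alone. A second Mfap2 probe set (1447833_x_at) had 52.0 and 95.6 in SMRTmRID cells, against 34.1 and 11.4 in wild-type cells, and with it the difference was 1.23 (adjusted p = 0.0120, limma). With the mean of both probe sets the Mfap2 difference was 2.65, and with a pseudocount of 64 it was 2.70. Emilin2, of a family of elastin-associated glycoproteins, rose by 1.43, and Emilin1 by 0.36. Fbln7, another fibulin gene, had a log2 difference of -1.42, or -0.84 with a pseudocount of 64. Its SMRTmRID mean, 26.6, was below the filter, so that it passed through its wild-type arrays alone. Emilin3, Mmrn1, Mmrn2 and Hmcn1 were below the filter, and Hmcn2 had no named probe set.

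The genes of the latent TGF-beta binding proteins and of the TGF-beta ligands were lower as far as they passed. On main probe sets, 6 of 7 tested genes were lower, against 35% of all tested genes called lower. None was higher, and Ltbp2 did not pass at 0.08. The median log2 difference was -0.52. Ltbp4, whose product assists the deposition of fibulin-5 and elastin, had 204 and 189 in SMRTmRID cells, against 1138 and 1086 in wild-type cells. Its log2 difference was -2.41 ± 0.07 (SE, adjusted p = 8.88e-09, limma). The ligand gene Tgfb3 had 323 and 331 in SMRTmRID cells, against 922 and 980 in wild-type cells, a log2 difference of -1.49 ± 0.07 (SE). Tgfb2 and Tgfb1 had log2 differences of -0.86 and -0.52, and Ltbp3 and Ltbp1 of -0.35 and -0.26. The probe sets of Ltbp3 disagreed. Another bright one (1418049_at) differed by -0.34. A dim one (1437833_at) had 49.9 and 58.6 in SMRTmRID cells, against 31.9 and 38.4 in wild-type cells, a log2 difference of 0.46. On a further dim one (1456189_x_at) the genotypes overlapped, at 0.07. The direction of Ltbp3 therefore depended on the probe set used.

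Of 4 tested genes of elastin cross-linking, 1 was higher and 2 were lower. Lox, the founding lysyl oxidase that joins elastin and collagen chains, had signals of 12930 ± 549 in SMRTmRID and 12049 ± 738 in wild-type cells (SD, n = 2 arrays each), and did not pass (log2 difference 0.10, adjusted p = 0.135, limma). Another bright Lox probe set (1416121_at) had 12826 and 10886 in SMRTmRID cells, against 9875 and 10112 in wild-type cells. Its genotypes did not overlap, at a log2 difference of 0.24. Loxl1, the family member most tied to elastic fibres, had a log2 difference of -0.31, or -0.51 with the mean of its probe sets. Loxl4 had a log2 difference of -0.98, and Loxl3 rose by 0.69.  Loxl2 and Fkbp10 had no named probe set.

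Among fibrillin processing and ADAMTS-like genes, 3 of 6 tested were higher and 2 lower. Adamts10, whose product binds fibrillin, rose by 1.09 and its relative Adamts6 by 1.04, or 0.60 with a pseudocount of 64. The wild-type mean of Adamts6, 32.4, was below the filter, so that the gene passed only with its SMRTmRID arrays. Adamtsl4, which encodes another fibrillin-binding protein, had a log2 difference of -0.91. Furin, the protease that trims fibrillin precursors, had a log2 difference of -0.24 (adjusted p = 0.0137, limma). Adamtsl1, Adamtsl2 and Thsd4 were below the filter, and Adamts17 had no named probe set.

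Matrix partners of fibulins and fibrillins were mostly higher, with 5 of 7 higher and 1 lower against 30.3% and 35% over all tested genes. The proteoglycan gene Dcn rose by 6.82, or 4.01 with the mean of its probe sets. Vcan encodes versican, which binds fibulin-1 and fibulin-2, and rose by 2.89, or 1.42 with the mean of its probe sets, several of them dim. Nid2, a basement membrane linker gene, rose by 1.92 ± 0.07 (SE) and Nid1 by 0.62. The fibronectin gene Fn1 had a log2 difference of -0.18 (adjusted p = 0.0115, limma), and the perlecan gene Hspg2 did not pass at 0.02.

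Receptor genes were split, with 3 of 8 tested higher, 3 lower and 2 that did not pass. Itgav encodes the alpha-v integrin chain, which binds fibrillin and fibulin-5, and rose by 1.26, or 0.76 with the mean of its probe sets. Lgals3, the galectin-3 gene, had a log2 difference of -1.80. Of the elastin receptor complex, Neu1 and Ctsa rose by 0.86 and 0.67 and Glb1 had a log2 difference of -0.56, but Neu1 did not pass with the mean of its probe sets (0.30, adjusted p = 0.200, limma). Itga8, Itgb3 and Itgb8 were below the filter. Among proteases that can cut elastin, 2 of 4 tested were higher and 1 lower. Ctsk, the cathepsin K gene, rose by 1.78 and Mmp14 by 0.45, and Mmp2 had a log2 difference of -0.29, or -0.16 after quantile normalization. The elastase genes Mmp7, Mmp9, Mmp12, Ctss and Elane were below the filter.

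**Figure D4:**
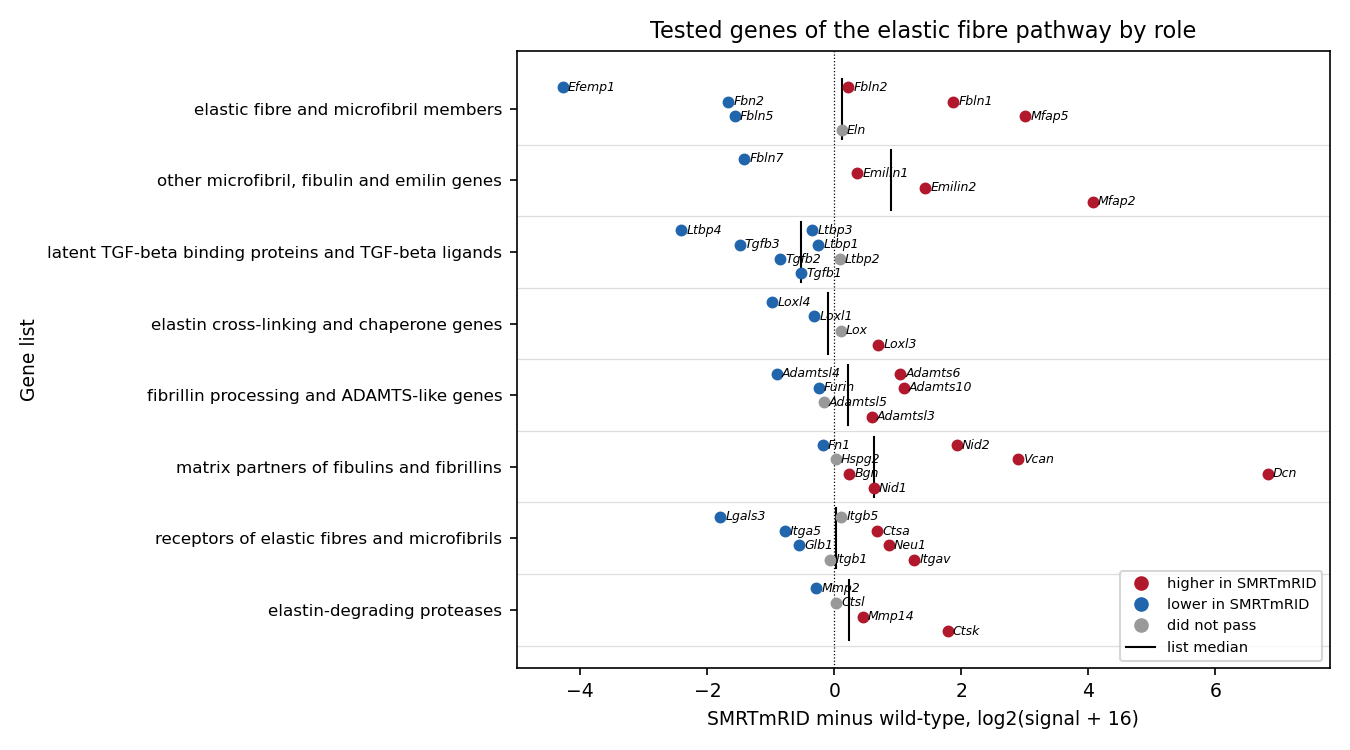
Log2 difference between SMRTmRID and wild-type cells for the tested genes of 8 lists by role, on main probe sets. The members are in the top row. Red points were called higher in SMRTmRID, blue points lower, grey points did not pass and black bars are list medians. The TGF-beta row has 6 blue points and no red ones, whereas the members and the receptors lie on both sides of 0.

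Markers of cell types were measured beside these genes. All 8 fibroblast markers had a mean over the 4 arrays above the filter. Their summed signals were 75034 to 78731 in SMRTmRID and 59893 to 62016 in wild-type cells. Of these 5 were higher, among them Thy1, Pdgfra and Pdgfrb, and 2 lower. Thy1 had 20.6 and 6.57 in wild-type cells, below the filter, so that it passed through its SMRTmRID arrays alone and had to be higher. Of 6 smooth muscle markers 4 were tested, 1 higher and 2 lower, with sums of 15187 to 16013 in SMRTmRID and 17650 to 18062 in wild-type cells, and the defining marker Myh11 was below the filter. Chondrocyte markers summed to 402 to 450.0 in SMRTmRID and 2896 to 2982 in wild-type cells, 3 of 6 being tested, 1 higher and 2 lower. Nearly all of that gap lay in Col2a1, with a mean of 37.7 in SMRTmRID and 2629 in wild-type cells, while Acan was below the filter. Epithelial and mesothelial markers summed to 204 to 254 in SMRTmRID and 955 to 977 in wild-type cells, with 2 of 6 tested and both lower. The mesothelial marker Msln led them, with a mean of 27.9 in SMRTmRID and 684 in wild-type cells. Its SMRTmRID mean was below the filter, so that it passed through its wild-type arrays alone and had to be lower. The lists did not move as wholes. Among chondrocyte markers Sox9 was higher, with a log2 difference of 0.39, and Col9a1 and Matn1, both below the filter, had differences of 1.48 and 0.61. Among fibroblast markers Vim and S100a4 were lower, with differences of -0.16 and -0.31, and Col1a1 did not pass at 0.02. The part of cell type composition in the members' differences was not tested. No endothelial marker of 5 was above the filter, with sums of 83.0 to 107 in SMRTmRID and 91.3 to 91.8 in wild-type cells. No adipocyte marker of the 2 with a named probe set was above it, with sums of 20.6 to 26.6 in SMRTmRID and 11.1 to 18.4 in wild-type cells. Of 5 macrophage and blood markers 3 were tested and Lyz2 was higher, while Ptprc was below the filter. Their sums were 329.8 to 340.3 in SMRTmRID and 185 to 368 in wild-type cells. Lyz2 had 27.4 and 15.6 in wild-type cells, below the filter, so that it passed through its SMRTmRID arrays alone and had to be higher.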

How the data were processed

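The authors deposited a linear intensity for each probe set on each array, made with MAS5 according to the submitters' processing notes and, as the values show, already scaled to one level. The MAS5 version and detection calls were not used here, so low signals are given as signals and not as absent. Of 45101 probe sets, 64 controls were left out. GEO's platform annotation gave 34945 of the others 1 symbol, 932 several and 9160 none. Symbols were updated by gene ID from a RefSeq table of GRCm38.p6. Members and lists were chosen with earlier results of these data known, and lists were only counted. All members are named. Of each other list, up to 3 called genes with the greatest change are named by rule, and others to complete a list.

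Signals were taken as log2(signal + 16) and fitted with limma 3.58.1 in R 4.3.3 (lmFit, eBayes with a mean-variance trend, all 4 arrays, no covariates, two-sided). Probe sets other than a gene's main one come from a fit over all 22481 probe sets above the filter. The script was tested on simulated data. The replicate numbers do not pair the arrays: deviations of same-numbered arrays correlated at 0.0122. The 14 alternatives were other pseudocounts, filters, normalizations, probe set rules, no variance trend, the replicate block and each array left out. Precision is limited by the small number of arrays. Figures were drawn with matplotlib 3.10.9.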

Additional observations from a re-analysis of the deposited data

How the results depend on the processing

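Over 14 alternatives, 2 to 3 members were called higher and 3 to 4 lower, against 3 and 3 as reported. Among the other pathway genes 14 to 20 were higher and 14 to 16 lower, against 17 and 16. Of 98 recomputed differences of single members 96 kept their direction and their side of the threshold, and both others were those of Fbln2. Its difference was -0.33 with the mean of its probe sets (adjusted p = 0.00418) and 0.22 without a variance trend (adjusted p = 0.0553), both by limma. The first follows from averaging in a dim probe set that ran the other way. Changing the filter, the variance trend or the block left the differences themselves as they were and could move only the p-values. Mfap4 was fitted only without a filter, so its 1 recomputed value could not change. Of 290 differences of the other pathway genes named by rule, 289 kept theirs, the exception being Neu1 with the mean of its probe sets. Pathway genes named only to complete a list, among them Furin and Fn1, were not checked singly in this way. Leaving out each array in turn gave 3 members higher and 3 lower every time, 5 to 6 member probe sets higher and 4 lower, 17 to 18 other pathway genes higher and 14 to 16 lower, and 3011 to 3131 genes higher and 3474 to 3590 lower over the whole table. The arm left with 1 array is then assumed to vary like the other. With the replicate number as a block 3 members were higher and 3 lower, and no call among the members changed. The differences of Efemp1, Mfap2, Fbln7 and Adamts6 depend on the pseudocount, because the mean of 1 genotype lay below the filter. Signals below the filter, as for Mfap4 and the second probe sets of Eln, Fbln2 and Fbln5, limit what can be said of them.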
